A study of Mus musculus with 12 samples.

Results

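Cyclic AMP and protein kinase A (PKA) signalling was followed through 10 genes in Leydig cells of adult mice given di-(2-ethylhexyl)-phthalate (DEHP), a plasticizer, or its vehicle. The genes are Gnas, Prkaca, Prkacb, Prkar1a, Prkar2a, Prkar2b, Pde8a, Pde8b, Pde4a and Creb1, taken by name out of 27962 gene names on the array. They were chosen with earlier results of these data known. They are read by 25 of the 41174 array probes. DEHP mice were male C57BL/6J mice, 21 weeks old, gavaged once a day over 21 days with a corn oil solution giving 200 mg of DEHP per kg. Vehicle mice were of the same strain, sex and age and received corn oil alone. Laser capture microdissection took Leydig cells from frozen testis sections, 1 cap per mouse, and the RNA was amplified for 2 rounds before labelling. RNA of 2 DEHP mice (labelled 1 and 4) and 3 vehicle mice (labelled 1, 2 and 4) was hybridised in all 6 pairs, each pair with both dye orientations, on 12 arrays read in both colours, lying on 3 slides of 4. Each pair therefore reuses the same extracts, and the mouse is the replicate.

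Luteinizing hormone acts on Leydig cells through a receptor coupled to the stimulatory G protein, whose alpha subunit is made by Gnas and which turns on adenylyl cyclase. The cAMP that forms binds regulatory subunits of PKA and frees the catalytic subunits, which switch on steroid synthesis at once and raise its genes more slowly, partly through CREB. Phosphodiesterases end the signal by breaking cAMP down, and anchoring proteins hold PKA at chosen places in the cell. In the testis, germ cells use the same pathway, and PKA held on the sperm tail is needed for motility.

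Each value below is the log2 difference between 1 mouse and the average of all 5, so that 1 unit is a doubling, and values of different probes are not compared as levels. The arrays had 45.4% to 54.4% of probes well above background in the red channel and 35.5% to 46.1% in the green channel, and the correlation between the 2 arrays of a dye swap ranged from 0.570 to 0.939. Of the 25 probes, 15 were measured, with at least 1 for each of the 10 genes. A probe counted as measured when 2 or more mice had it well above background on a share of 0.5 or more of their arrays. The other 10 probes failed this, and 7 of them were never well above background. The number of arrays limits the precision of each value.

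The sequences of the probes on which the contrasts below turn are printed, so that probes of the same gene that gave different values (Prkar2a, Creb1), the probes that stood apart in 1 DEHP mouse (Pde4a, Pde8a) and a dim probe (Gnas) can be told apart. They are given 5′ to 3′ as the array files hold them, with positions on mouse assembly mm7. The Prkar2a probe at chr9:108455405-108456701 (+) takes its 60 bases from 1297 bases of genome and so crosses an intron. A second Prkar2a probe, at chr9:108458345-108458404 (+), starts 1643 bases further on; its last 30 bases are shown, with capitals marking ATTAAA, a letter pattern that often precedes the end of a transcript.
Prkar2a intron-crossing probe: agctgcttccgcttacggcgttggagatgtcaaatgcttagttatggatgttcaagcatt
Prkar2a downstream probe: tccttttctatggtattgctttATTAAAta

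AATAAA or ATTAAA, searched in the printed strand only, was present in 7.49% of all array probes and in 1 of the 25 probes of these genes, the one shown. The match is a description of the letters and no evidence of a transcript end. Probes crossing an intron made up 12.4% of all positioned probes and 3 of the positioned probes of these genes (12.5%). The remaining sequences are those of the brightest Pde4a probe (last 30 bases, chr9:21088068-21088127, +), the Pde8a probe (first 30 bases, chr7:77206775-77206834, +), the brightest Gnas probe, which also crosses an intron (60 bases from chr2:174086289-174087618, +), and 2 Creb1 probes (first 30 bases each, chr1:64839787-64839846 and chr1:64843383-64843442, both +). No capitals are marked in these. Whether a probe lies in coding sequence or in an untranslated region was not annotated here.
Pde4a: ggaactgaagtcccccaaaaaagggatttt
Pde8a: aaatgatgcatttttcccacactatggaat
Gnas: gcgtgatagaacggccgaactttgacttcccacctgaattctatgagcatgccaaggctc
Creb1 brightest probe: ttcattcagttctgtgtgttcagcagtttg
Creb1 probe with 10 spots: agtcagtatggaagaatttcaaacaaatca

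None of the 10 genes differed between DEHP and vehicle mice beyond the spread between mice of a group. By limma with Benjamini-Hochberg adjustment over all 21197 measured probes, 0 of the 15 probes passed an adjusted p of 0.05, as did 0% of all probes. At an unadjusted p under 0.05 the count was again 0 of 15, against 0.986% of all probes, and the smallest unadjusted p among the 15 was 0.155. Of the 15 probes, 6 were above 0 and 9 below in DEHP relative to vehicle mice, with a median of -0.03, against 49% above 0 and a median of -0.01 over all probes. Among the 9 are the second probes of Gnas and Pde4a described below. These counted as measured only through vehicle mice, so their direction is tied to that requirement. With 2 mice against 3, an exact permutation test of a single probe, two-sided, cannot go below p = 0.2. Where the difference was largest, in Prkar2a, Pde4a and Pde8a, it rested on DEHP mouse 4 alone. A smaller number of cells of a type in a cap and less RNA per cell cannot be told apart in any of these values.

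**Figure D1:**
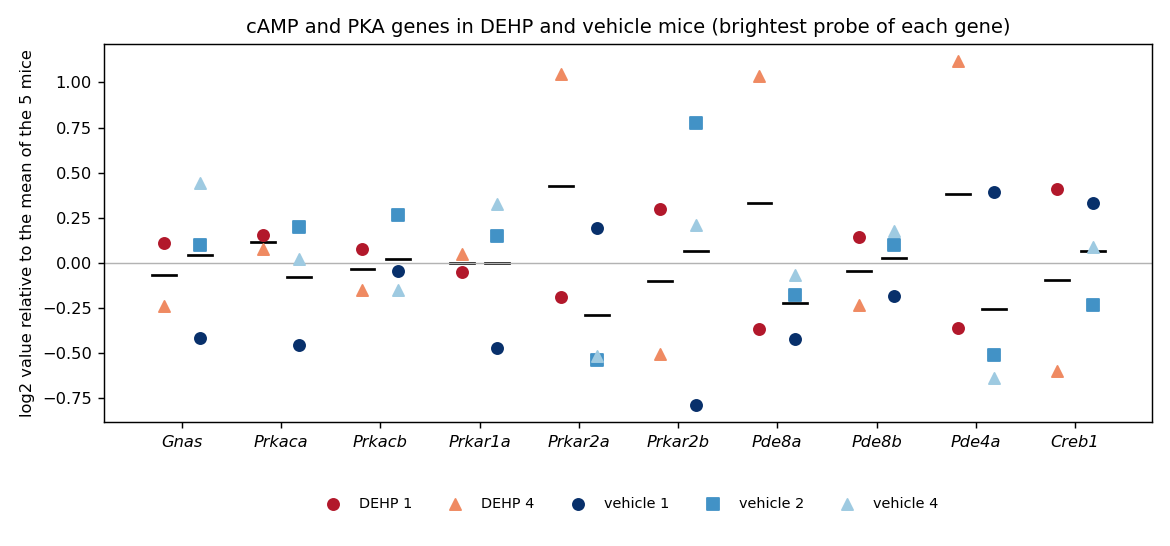
Log2 values of the brightest probe of each gene relative to the 5-mouse mean, with DEHP mice on the left and vehicle mice on the right of each gene and a bar at each group mean. DEHP mouse 4 stands at 1.04 for Prkar2a, 1.03 for Pde8a and 1.12 for Pde4a, away from DEHP mouse 1, and the groups overlap in all 10 genes.

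Gnas, the alpha subunit that couples the hormone receptor to adenylyl cyclase, read 0.11 in DEHP mouse 1 and -0.24 in DEHP mouse 4, against -0.42, 0.10 and 0.44 in vehicle mice 1, 2 and 4. The vehicle mice span a wider range than the DEHP mice and enclose them. The difference was -0.11 (SE 0.30, n = 2 and 3; limma adjusted p = 1), and without DEHP mouse 4 it was 0.07. This probe is dim: it was well above background on 5 of 12 arrays for the DEHP channel and 7 of 12 for the vehicle channel. With the scanner software's processed signals in place of the offset-stabilised ones, the range over the 5 mice was 5.14 in place of 0.86, so its size depends on how dim spots are treated.

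A second Gnas probe, at chr2:174086070-174086231, read -0.08 and -0.05 in DEHP mice 1 and 4, against -0.01, 0.09 and 0.04 in vehicle mice 1, 2 and 4. Of the 15 probes, 1 had groups that did not overlap, this one, compared with 9.47% of all probes, 5.33% with DEHP below. It was not well above background on any of the 12 arrays in the DEHP channel and was so on 4 in the vehicle channel, so that the DEHP value is only a bound and no fold is given. It counted as measured only through vehicle mice 2 and 4, which are the higher ones, so its direction is tied to that requirement and nothing is read from the separation. The remaining 6 Gnas probes were never well above background. Those of them with a given position are spread over the long and imprinted Gnas locus.

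The catalytic subunits, which carry the kinase activity, gave small estimates with wide intervals. Prkaca, the main catalytic subunit in most tissues, read 0.15 and 0.08 in DEHP mice 1 and 4, against -0.45, 0.20 and 0.02 in vehicle mice 1, 2 and 4. The DEHP mice lie inside the vehicle range, whose low end is vehicle mouse 1 alone. The difference was 0.19 (SE 0.25, 95% interval -0.42 to 0.81, limma adjusted p = 1). Its sign was kept in all 24 alternative settings, with the largest value 0.33 and the smallest 0.01. Several of these settings leave the difference unchanged by construction, so they could not turn the sign. Prkacb, the second catalytic subunit, read 0.08 and -0.15 in the same DEHP mice, against -0.05, 0.27 and -0.15 in the vehicle mice. Its groups also overlap, its difference was -0.06 (SE 0.21, 95% interval -0.58 to 0.47), and it was well above background on 7 of 12 arrays in each channel. With processed signals the range of Prkacb over the 5 mice was 2.73 in place of 0.42. A lack of difference is not shown for either gene.

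The regulatory subunits hold the kinase inactive until cAMP binds, and types I and II differ in where they sit in the cell, type II being the one mostly tied to anchoring proteins. Prkar1a, the type I alpha subunit, read -0.05 and 0.05 in DEHP mice 1 and 4, against -0.47, 0.15 and 0.32 in vehicle mice 1, 2 and 4. Both DEHP mice were near the centre of the vehicle range, and the difference was -0.00 (SE 0.28). It was well above background on all 12 arrays in both channels. With processed signals its range over the 5 mice was 1.46 in place of 0.80, so its spread depends on how the signal is treated.

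Prkar2a, the type II alpha subunit, gave the largest difference of the 10 genes. Its intron-crossing probe read -0.19 in DEHP mouse 1 and 1.04 in DEHP mouse 4, against 0.19, -0.53 and -0.52 in vehicle mice 1, 2 and 4. DEHP mouse 4 was the highest of all 5 mice, and DEHP mouse 1 was below vehicle mouse 1. The difference was 0.72 (SE 0.44, 95% interval -0.37 to 1.80; limma adjusted p = 1). Leaving out DEHP mouse 4 gave 0.10, and leaving out DEHP mouse 1 gave 1.33. Within slides 1, 2 and 3 it was 0.65, 0.55 and 0.95, where slides 1 and 2 hold vehicle mice 1 and 2 and slide 3 holds vehicle mouse 4. From the log2 ratios of the authors' deposited table it was 0.84.

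The downstream Prkar2a probe read 0.06 and 0.10 in DEHP mice 1 and 4, against 0.35, 0.08 and -0.59 in vehicle mice 1, 2 and 4. Here DEHP mouse 4 does not stand out and vehicle mouse 4 is the lowest. Both probes were well above background on all 12 arrays in both channels, so the disagreement is between 2 measured probes of 1 gene. For the intron-crossing probe, DEHP mouse 4 exceeded DEHP mouse 1 by 1.23 (SE 0.04), a 2.35-fold difference between these extracts, but for the downstream probe the gap was 0.04 (SE 0.04). Vehicle mouse 2 exceeded vehicle mouse 4 by 0.67 (SE 0.05) on the downstream probe, compared with a gap of -0.02 (SE 0.05) on the intron-crossing one. The mean of both probes gave a DEHP minus vehicle difference of 0.43.

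**Figure D2:**
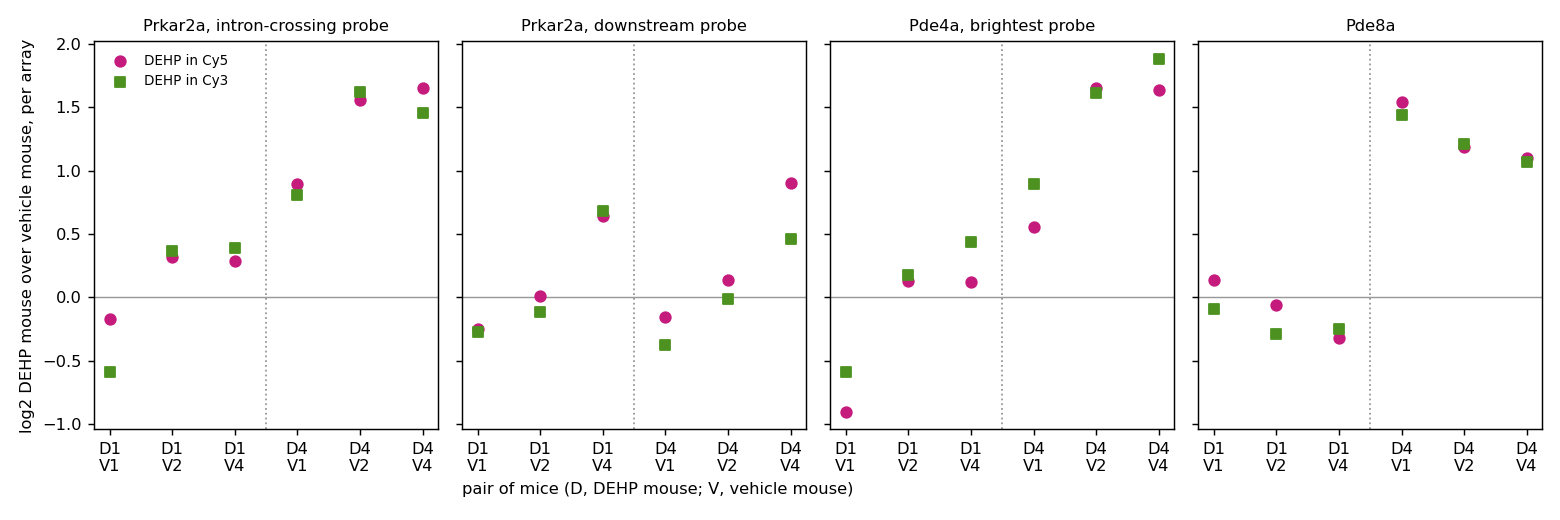
Log2 ratios of the DEHP mouse over the vehicle mouse on each of the 12 arrays, by pair of mice on the x axis, with circles for DEHP RNA in Cy5 and squares for DEHP RNA in Cy3. The pairs with DEHP mouse 4 all lie above 0 for the intron-crossing Prkar2a probe, Pde4a and Pde8a, whereas the downstream Prkar2a probe follows the vehicle mouse of the pair.

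Prkar2b, the type II beta subunit, varied among mice about as widely as Prkar2a, with a range of 1.56 over the 5 mice for Prkar2b and 1.58 for Prkar2a. Prkar2b read 0.30 in DEHP mouse 1 and -0.50 in DEHP mouse 4, against -0.79, 0.78 and 0.21 in vehicle mice 1, 2 and 4. The lowest and the highest of the 5 mice were both vehicle mice. The difference was -0.17 (SE 0.51, 95% interval -1.43 to 1.09; limma adjusted p = 1), and it turned to 0.23 without DEHP mouse 4. The interval leaves room for more than a doubling in either direction, so a lack of difference is not shown.

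The phosphodiesterases break cAMP down. Pde8a makes a high-affinity enzyme that, in mouse Leydig cells, is known to restrain basal and hormone-driven testosterone output. It read -0.37 in DEHP mouse 1 and 1.03 in DEHP mouse 4, against -0.42, -0.18 and -0.06 in vehicle mice 1, 2 and 4. DEHP mouse 4 lies far above the other 4, which sit close together, and DEHP mouse 1 is the second lowest. The difference was 0.56 (SE 0.43, 95% interval -0.50 to 1.61; limma adjusted p = 1), and leaving out DEHP mouse 4 gave -0.15 where leaving out DEHP mouse 1 gave 1.26. Within slides 1, 2 and 3 it was 0.70, 0.57 and 0.40.

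Pde8b, its relative in the same family, read 0.14 and -0.24 in DEHP mice 1 and 4, against -0.19, 0.10 and 0.17 in vehicle mice 1, 2 and 4. The groups overlap and the difference was -0.08 (SE 0.22). This probe was well above background on 8 of 12 arrays in the DEHP channel and 11 of 12 in the vehicle channel. A second probe named Pde8b lies on the opposite strand and was never well above background.

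Pde4a, a cAMP-specific phosphodiesterase of another family, read -0.36 in DEHP mouse 1 and 1.12 in DEHP mouse 4, against 0.39, -0.51 and -0.64 in vehicle mice 1, 2 and 4. As for the intron-crossing Prkar2a probe, DEHP mouse 4 and vehicle mouse 1 were the high animals of their groups. The difference was 0.63 (SE 0.53, 95% interval -0.68 to 1.95; limma adjusted p = 1), and it became -0.11 when DEHP mouse 4 was left out and 1.37 when DEHP mouse 1 was. Within slides 1, 2 and 3 it was 0.36, 0.52 and 1.02. A second, dim Pde4a probe at chr9:21068180-21068239, well above background on 3 arrays in the DEHP channel and 7 in the vehicle channel, gave -0.05 (SE 0.18). It counted as measured only through vehicle mice, so its direction is tied to that requirement and nothing is read from it.

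Creb1 encodes the transcription factor that PKA phosphorylates on cAMP-responsive genes. Its brightest probe read 0.41 in DEHP mouse 1 and -0.60 in DEHP mouse 4, against 0.33, -0.23 and 0.09 in vehicle mice 1, 2 and 4. The 2 DEHP mice were the highest and the lowest of the 5, so the groups overlap completely. The difference was -0.16 (SE 0.35; limma adjusted p = 1), and without DEHP mouse 4 it was 0.34. A second probe, printed on each array as 10 spots whose SD within an array had a median of 0.09, read 0.20 and -0.03 in DEHP mice 1 and 4, against -0.11, -0.06 and 0.01 in the vehicle mice. Its difference was 0.14 (SE 0.18). Another, dimmer probe gave -0.03 (SE 0.18).

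**Figure D3:**
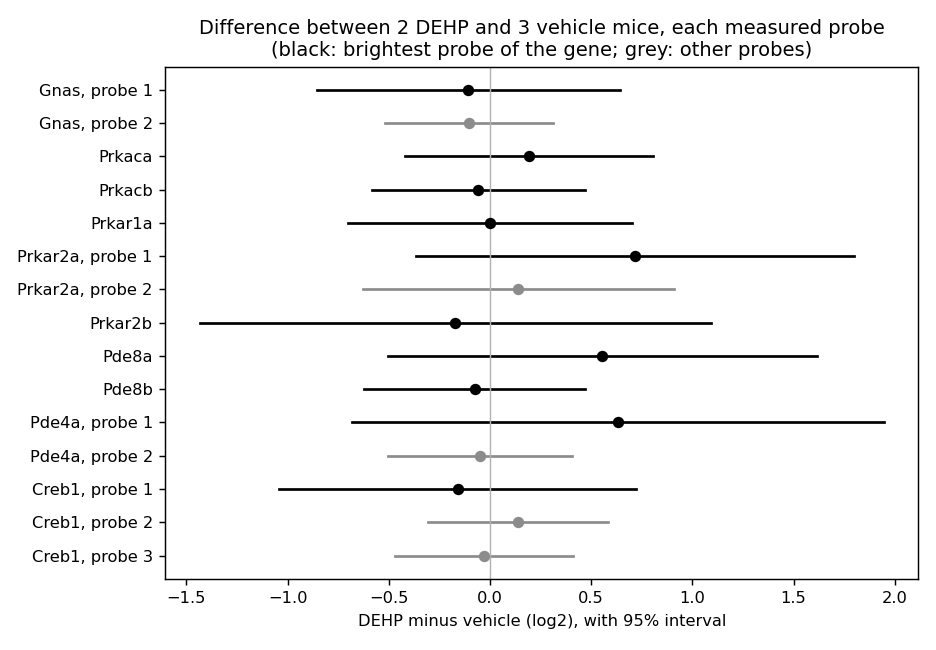
DEHP minus vehicle differences on the log2 scale for the 15 measured probes with 95% intervals from limma's fit on the 5 mouse values, black for the brightest probe of a gene and grey for others. All 15 intervals include 0, and those of Prkar2a, Prkar2b, Pde8a, Pde4a and Creb1 are the widest among the brightest probes.

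The spread between mice was set against the error of the arrays by comparing extracts directly, from the 6 dye-swap averages. These tests describe the RNA extracts of single mice, not DEHP. Between DEHP mouse 4 and DEHP mouse 1, 9 of the 15 probes passed a limma adjusted p of 0.05, against 73.5% of all probes. The 3 higher in DEHP mouse 4 were Prkar2a on its intron-crossing probe, Pde8a by 1.40 (SE 0.04, adjusted p = 1.79e-05) and Pde4a by 1.48 (SE 0.04, adjusted p = 1.69e-05). The 6 lower were on Gnas (-0.35), Prkacb (-0.23), Prkar2b (-0.80), Pde8b (-0.38) and 2 probes of Creb1 (-1.01 and -0.23). In the array as a whole 35.7% of probes were higher and 37.7% lower in DEHP mouse 4, so the share called among these genes was no greater than elsewhere.

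Between vehicle mouse 1 and the mean of vehicle mice 2 and 4, 10 of the 15 probes passed, against 67.5% of all probes. Both Prkar2a probes (0.72 and 0.60), Pde4a (0.97) and Creb1 (0.41) were higher in vehicle mouse 1, as were 32.4% of all probes. Gnas (-0.69), Prkaca (-0.56), Prkar1a (-0.71), Prkar2b (-1.28), Pde8a (-0.30) and Pde8b (-0.32) were lower in vehicle mouse 1, as were 35.1% of all probes. Between vehicle mouse 2 and vehicle mouse 4, 6 of the 15 passed, against 51.6% of all probes, with Prkaca (0.18), Prkacb (0.42), downstream Prkar2a and Prkar2b (0.56) higher in vehicle mouse 2 and Prkar1a (-0.18) and Creb1 (-0.32) lower. Of all probes 25.2% were higher and 26.4% lower there. Vehicle mouse 1 differed from the other vehicle mice by 0.72 on the intron-crossing Prkar2a probe, as large as the difference between the group means on that probe. Over the 5 mice, the range of the 15 probes had a median of 0.797, against 0.674 for all measured probes.

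Markers of other cell types in the testis moved between the same mice. The 8 Leydig cell markers, which include Insl3, Star and Cyp17a1 and were all measured, had a median of 0.75 in DEHP mouse 1 and -0.81 in DEHP mouse 4, against -0.46, 0.22 and 0.52 in vehicle mice 1, 2 and 4. Of these 8, 2 were above and 6 below 0 in DEHP relative to vehicle mice, and their summed intensity (log2) was 15.7 to 17.3 in DEHP mice and 16.0 to 17.3 in vehicle mice. The spermatid markers, all 10 measured and including the protamine genes Prm1 and Prm2, had a median of -0.00 in DEHP mouse 1 and 0.83 in DEHP mouse 4, against 0.30, -0.74 and -0.40 in vehicle mice 1, 2 and 4. Of them 9 were above and 1 below 0, and their summed intensity was 19.0 to 19.5 in DEHP mice and 18.2 to 18.9 in vehicle mice. Both DEHP mice lay above all 3 vehicle mice in 2 of the 10, Prm1 and Tnp1, against 4.14% of all probes. Every one of the spermatid markers was well above background on all 12 arrays in both channels, so none was absent. Endothelial markers (5 measured of 5) had medians of 0.20 and -0.26 in DEHP mice 1 and 4, against -0.76, 0.67 and 0.14 in the vehicle mice, with summed intensities of 11.6 to 12.3 in DEHP mice and 11.1 to 13.3 in vehicle mice. Of these, Cdh5, Kdr, Tek and Vwf were well above background on all 12 arrays in the DEHP channel and on 11 or 12 in the vehicle channel, and Pecam1 was so on 0 and 6. In DEHP relative to vehicle mice 1 of the 5 was above 0 (Kdr, 0.37, SE 0.22) and 4 were below. Among the 4 is Pecam1, which counted as measured only through vehicle mice, so its direction is tied to that requirement. Macrophage markers (6 measured of 6) had medians of 0.56 and -0.77 in DEHP mice 1 and 4, against -0.62, 0.12 and 0.57 in the vehicle mice, the same order as the Leydig markers within each group. Measured too were 5 of 6 spermatocyte, 7 of 8 Sertoli cell and 5 of 5 peritubular myoid cell markers. The Leydig markers that the label calls for were thus detected, and so were markers of 6 other cell types. In DEHP relative to vehicle mice all 5 myoid markers were below 0 (median -0.86), as were 6 of the 7 Sertoli cell markers (median -0.32). The Sertoli cell markers Sox9 and Cst9 had both DEHP mice below all 3 vehicle mice, against 5.33% of all probes. Of the spermatocyte markers 3 were above 0 and 2 below, and of the macrophage markers 3 and 3. No marker in any list passed a limma adjusted p of 0.05.

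The intron-crossing Prkar2a probe and the brightest Pde4a probe had mouse values close to the spermatid list. The root mean square difference over the 5 mice was 0.171 between that Prkar2a probe and the spermatid median and 0.256 between that Pde4a probe and the same median, compared with 1.13 and 1.23 to the Leydig median. The downstream Prkar2a probe, as well measured, lay 0.498 from the spermatid median and nearer to the spermatocyte one (0.254), so the likeness does not extend to both probes of the gene. The dim second Pde4a probe lay 0.601 from the spermatid median, from which nothing is read, as it counted as measured only through vehicle mice. Prkar2b lay 0.131 from the endothelial median and 0.404 from the Leydig median. Gnas and Pde8b lay nearest to the Sertoli median (0.296 and 0.185), against 0.387 and 0.425 from the Leydig median. This measure depends on the size of the values as well as on their order over the mice. A probe of small range, such as Pde8b (0.41 over the 5 mice), therefore lies nearer to lists with small medians, such as the Sertoli one. Vehicle mouse 1 is low in Gnas, Pde8b and the Leydig median, but stands at 0.15 in the Sertoli median. Pde8a was 0.473 from the spermatid median, its nearest list among the 7, with DEHP mouse 4 high in both but vehicle mouse 1 low in Pde8a only. The part of these other cells in the values was not tested. Which gene to set beside which list was chosen after the values were seen.

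**Figure D4:**
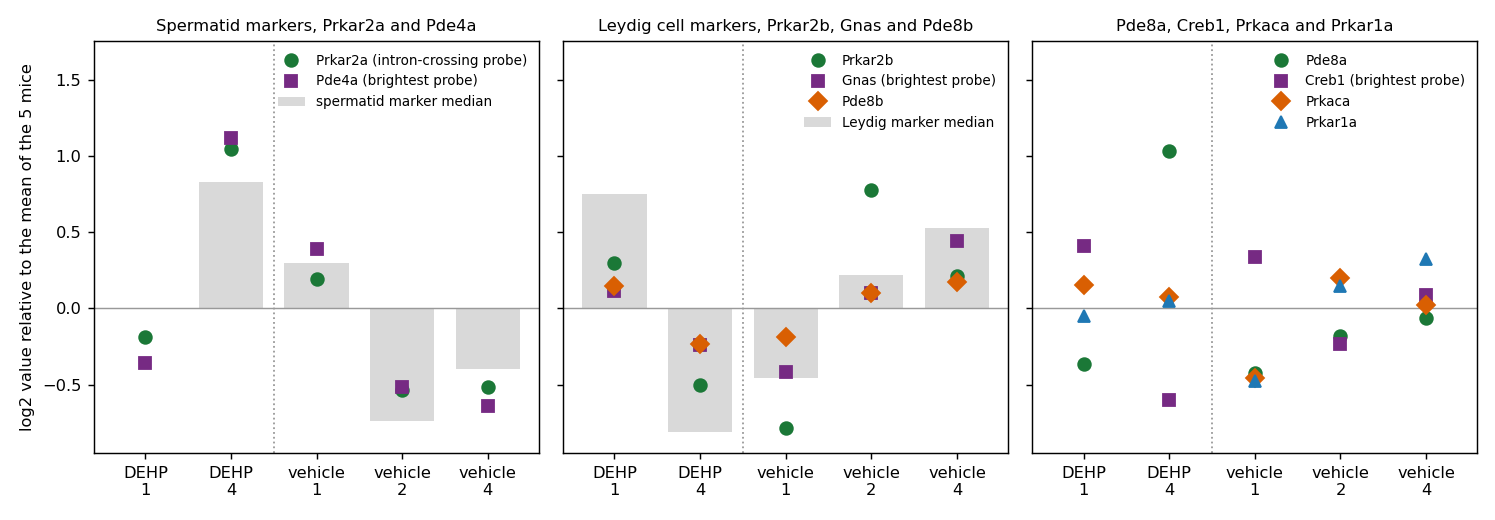
Log2 values of 9 of the genes by mouse, relative to the 5-mouse mean, DEHP mice left of the dotted line and vehicle mice right of it, with grey bars for the median of the spermatid or Leydig cell markers. The intron-crossing Prkar2a probe and the brightest Pde4a probe are high in DEHP mouse 4 and vehicle mouse 1, as the spermatid median is. Prkar2b, Gnas and Pde8b are low in these mice, as the Leydig median is. By root mean square difference, which also depends on the size of the values, Leydig is the nearest list for none of them.

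The genes whose 5 values came nearest, by the same root mean square difference among all measured genes, were Otud3 (0.0413) and Satl1 (0.0758) for the intron-crossing Prkar2a probe, Oxr1 (0.0806) and Ccdc166 (0.0857) for Pde4a, and Adamts5 (0.0583) and Mgrn1 (0.0602) for Prkar2b. The comparison rests on 5 points per gene, which share arrays and extracts, and says no more than that these profiles look alike.

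The pathway beyond the 10 genes was described with 92 other genes, 69 of them measured. In DEHP relative to vehicle mice 37 of the 69 were above 0 and 32 below, with a median of 0.01, compared with 7653 above and 8177 below among all 15830 measured genes, which had a median of -0.01. By limma with Benjamini-Hochberg adjustment 0 of the 69 passed, and 0 had an unadjusted p under 0.05. DEHP mice lay above all 3 vehicle mice in 5 of the 69, against 4.14% of all probes, and below all 3 in 0, against 5.33%. The 5 were Adcy10, Pde3b and Akap12, described below, Gnai1, an inhibitory G alpha subunit (0.10, SE 0.17), and Nr4a2, an orphan nuclear receptor gene (0.22, SE 0.18).

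Upstream, 17 of 22 G protein and receptor genes were measured, 6 above 0 and 11 below. Lhcgr, the hormone receptor itself, read 0.05 and -0.36 in DEHP mice 1 and 4, against -0.27, 0.03 and 0.55 in vehicle mice 1, 2 and 4, with overlapping groups and a difference of -0.25 (SE 0.30). The Lhcgr probe was well above background on 7 of 12 arrays in the DEHP channel and 10 of 12 in the vehicle channel. Gna11, a G alpha subunit that acts through phospholipase C rather than cAMP, differed by -0.46 (SE 0.29, limma adjusted p = 1). It read 0.16 and -0.71 in DEHP mice 1 and 4, against 0.09, 0.28 and 0.18 in vehicle mice 1, 2 and 4, with overlapping groups. Gnb4, a G beta subunit, differed by -0.19 (SE 0.21), but its probe is dim, well above background on 4 of 12 arrays in the DEHP channel and 8 of 12 in the vehicle channel. Of 10 adenylyl cyclases, which make cAMP, 5 were measured, 3 above 0 and 2 below. Adcy10, the soluble cyclase that sperm need for motility, read 0.03 and 0.75 in DEHP mice 1 and 4, against 0.01, -0.16 and -0.63 in vehicle mice 1, 2 and 4. Its groups are separate only narrowly, at DEHP mouse 1 and vehicle mouse 1, and the difference was 0.65 (SE 0.31, limma adjusted p = 1). Adcy6, a membrane cyclase, differed by 0.13 (SE 0.20).

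Among 13 other phosphodiesterases, 8 were measured, 5 above 0 and 3 below. Pde3b, an enzyme best known for insulin action in fat, read 0.15 and 0.35 in DEHP mice 1 and 4, against -0.10, -0.16 and -0.23 in vehicle mice 1, 2 and 4. Both DEHP mice were above every vehicle mouse, with a difference of 0.41 (SE 0.18, limma adjusted p = 1), and the probe was well above background on 10 of 12 arrays in the DEHP channel and 6 of 12 in the vehicle channel. Pde1a, which calcium and calmodulin switch on, differed by 0.55 (SE 0.52), with DEHP mouse 4 at 0.95 and vehicle mouse 1 at 0.49.

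Of 5 further PKA genes 3 were measured, 1 above 0 and 2 below. Pkib, an inhibitor that blocks the free catalytic subunit, differed by 0.13 (SE 0.22), and Prkx, a related kinase encoded on the X chromosome, by -0.10 (SE 0.20). The anchoring proteins were measured for 14 of 15 genes, of which 11 were above 0 and 3 below, with a median of 0.19. Akap12, an anchoring protein that also holds protein kinase C, read -0.03 and 1.16 in DEHP mice 1 and 4, against -0.50, -0.12 and -0.52 in vehicle mice 1, 2 and 4. The groups do not overlap, but DEHP mouse 1 lies nearer to vehicle mouse 2 than to DEHP mouse 4, and the difference was 0.94 (SE 0.38, limma adjusted p = 1). Akap1, which ties PKA to mitochondria, read -0.13 and 1.14 in DEHP mice 1 and 4, against -0.06, -0.47 and -0.48 in vehicle mice 1, 2 and 4, with overlapping groups and a difference of 0.84 (SE 0.40, limma adjusted p = 1). In the extract comparison 10 of the 14 measured anchoring genes were higher and 3 lower in DEHP mouse 4 than in DEHP mouse 1, against 35.7% and 37.7% of all probes. Akap4, the anchoring protein of the sperm tail, stands in both the anchoring and the spermatid list.

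Downstream, 11 of 12 genes of the CREB family and its coactivators were measured, 5 above 0 and 6 below. Creb3, a membrane-bound family member, differed by -0.49 (SE 0.34, limma adjusted p = 1). It read 0.18 and -0.77 in DEHP mice 1 and 4, against -0.11, 0.28 and 0.42 in vehicle mice 1, 2 and 4, with overlapping groups. Crem, whose activator form drives gene expression in spermatids, differed by 0.46 (SE 0.52), with DEHP mouse 4 at 0.76 and vehicle mouse 1 at 0.66, the high animals for the intron-crossing Prkar2a probe and the brightest Pde4a probe too. Rapgef3, the cAMP sensor that acts apart from PKA and the 1 measured gene of 2 in its family, differed by 0.20 (SE 0.36).

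Of 13 genes that cAMP is known to induce, 10 were measured, 5 above 0 and 5 below. Per1, a clock gene with cAMP-responsive elements, read -0.04 and 0.91 in DEHP mice 1 and 4, against 0.40, -0.34 and -0.92 in vehicle mice 1, 2 and 4. The groups overlap and the difference was 0.72 (SE 0.47, limma adjusted p = 1). The probe of Fos, an immediate early gene, was well above background on 1 of 12 arrays in the DEHP channel and 9 of 12 in the vehicle channel. No difference is given for Fos. It is among the 5 below 0 but counted as measured only through vehicle mice, so its direction is tied to that requirement.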

How the data were processed

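Feature Extraction 9.5.1.1 wrote the deposited scanner files, per the file headers. They give each spot's intensity, as mean signal and median local background of both channels, with no normalization between arrays. Processed intensity, a red to green log10 ratio and 0 or 1 flags stand beside it, per the file headers; the log10 ratio served to check directions. The authors' deposited value table holds log2 ratios for 13669 spots. Against the scanner ratios (r = 0.915 to 0.993, slope 0.842 to 0.932, medians -0.06 to 0.00) it ran as DEHP over vehicle. Its filter and normalization are not given in the sources used here, and it served as an alternative.

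Here, limma 3.58.1 under R 4.3.3 applied normexp (offset 50) and then loess within arrays. Control and outlier spots were dropped and spots of a probe averaged. The 12 log ratios were solved by least squares for 5 mouse values and a dye effect. Mouse values were tested with lmFit and eBayes, with 3 residual degrees of freedom before moderation, and p values were adjusted by Benjamini-Hochberg with a threshold of 0.05. Extracts were compared on the 6 dye-swap averages in 21165 probes. Calculations were tested on simulated data.

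A gene's probe of highest mean intensity stands for it. Genes outside the 10 were named as the 2 of lowest p per pathway list and the 2 nearest to each of the 3 members of widest range. Lhcgr, Akap4, Gnai1, Nr4a2 and the single markers named were chosen after their values were seen. The members and gene lists were chosen with earlier results of these data known. Mouse numbers were not taken as pairs in the main test. Deviations from the group means correlated at -0.720 between DEHP and vehicle mouse 1 and at -0.537 between DEHP and vehicle mouse 4. Each correlation sets 1 mouse against 1 mouse and cannot show whether equal numbers mark a pairing. The labels speak of independent mice, so p values measure the spread between mouse values. With 1 cap per mouse, that spread holds animal, capture and amplification together, and these cannot be told apart.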

Additional observations from a re-analysis of the deposited data

How the results depend on the processing

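Gnas, Prkacb and Pde8b have no value under the strictest filter or in the authors' table, and the counts of separated groups, of extracts and the pathway median were recomputed under fewer settings than single genes were. A dye effect per slide could not be fitted because slides 1 and 2 hold 1 orientation each; 1 dye effect for both and another for slide 3 was chosen after seeing the data. No probe passed in any fit of mice, the replicate block by mouse number included, which gave Prkar2a 0.591, Pde4a 0.503 and Pde8a 0.578 and turned Prkacb (0.063), Prkar1a (0.0739) and Prkar2b (0.184). Treating the 12 arrays as independent called 2854 probes, 1 of them here (Prkar2a, 0.715, adjusted p 0.0381, the other alternatives giving 0.308 to 1); that fit counts repeated arrays as animals. Median centring gave 2 probes with separated groups instead of 1, the added one being a Creb1 probe with DEHP above, and 11 instead of 6 probes between vehicle mice 2 and 4.

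Leaving out a mouse moved the pathway median between -0.0306 and 0.0655, against 0.01. It moved Gnas between -0.336 and 0.0931, Prkacb between -0.172 and 0.063, Prkar1a between -0.236 and 0.162, Prkar2b between -0.598 and 0.231, Pde8a between -0.145 and 1.26, Pde8b between -0.265 and 0.114, Pde4a between -0.106 and 1.37, and Creb1 between -0.664 and 0.344. The sign turned without DEHP mouse 4 in Gnas, Prkacb, Prkar2b, Pde8a, Pde8b, Pde4a and Creb1. Of 234 alternative values of single genes, 209 kept their sign and 25 did not. Of the 25, 7 were on single slides or dye orientations, which have no test. Several settings, such as the filters and the fits by array or dye-swap average, leave the difference unchanged by construction. They cannot turn a sign, so the 209 is no measure of robustness. Prkar1a, at -0.00, was 0.0677 from processed signals and 0.0079 under median centring. Gnas was 0.336 on slide 2 and -0.506 on slide 3. The cause of these changes was not tested, apart from the smaller number of mice. A fit with 1 DEHP mouse assumes that it varies like the vehicle mice. The median of all probes, where computed, lay between -0.0459 and 0.012.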
